A study of Harpegnathos saltator with 47 samples.

Results

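The genes described here are the 100 whose brain level was highest in workers of stable colonies of the ponerine ant Harpegnathos saltator. They were chosen from 10195 genes with a mean of at least 1 RPKM, out of 18429 gene rows. RPKM is a read number scaled by gene length and library depth. For each gene and each of the 3 groups of ants, the median of log2(RPKM + 1) was taken in sequencing batch B and in batch C, and both medians were averaged. Stable-colony workers were the highest group in 3375 genes, which is 33.1% of the 10195. In 1531 of these the gap from the highest to the middle group was larger than that from the middle to the lowest, and the 100 with the largest upper gap were kept. The measured levels of the same ants therefore fixed that stable workers lie highest by median, and this order is a description and not a finding.

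The study sequenced polyA RNA of brains without optic lobes from 33 individual ants in 47 runs, with 14 ants run more than once. Gamergates (12 ants) and transition workers (11 ants) came from nests set up with 30 newly eclosed females aged 1 to 3 days and males but no dominant reproductive, and were taken after 120 days. Gamergates were told from workers by their ovaries. The 10 stable workers carry the labels worker and stable colony and the same day 120, and their age is not given apart from the protocol shared by all samples. No strain, transgene or drug treatment is labelled, and the labels give no nest for any ant. P-values therefore measure only the spread between these ants.

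In Harpegnathos saltator, the workers of a colony that has lost its reproductive duel with their antennae, and winners can take its place as gamergates. These are workers with active ovaries that mate, lay eggs, stop hunting and live longer than other workers. Where a reproductive is in place, workers hunt and tend the brood and do not lay. The stable workers stand beside workers that went through a transition nest without becoming gamergates, and beside gamergates of the same kind of nest.

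Libraries held 3904943 to 11159675 reads in genes. Batch B had 5 ants of each group, batch C had 5 stable workers, 4 transition workers and 5 gamergates, and batch A had 2 transition workers and 2 gamergates and no stable worker. The share of reads on ribosomal RNA was highest in transition worker 9, at 20.0%, and in transition worker 10, at 7.82%. It ran from 0.456% to 7.05% in stable workers and from 0.317% to 2.81% in gamergates. Library names start with b, H or ND, whose meaning is not given, and no stable worker carried b, whereas 11 of the 12 gamergates did. The files pair no gene ID with a name, and 0 of the 100 IDs were found in the RefSeq gene table, so genes are given by ID with no role. The brain label was not checked against marker genes for the same reason.

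The 100 genes were mostly short and weakly read. Their median length, as implied by the RPKM values, was 591.5 bases against 1611 over all 10195 genes. Their median mean level was 3.92 RPKM against 18.0. A gene of the set had a median of 17.5 reads per ant on average, against 224 over all genes. Under 10 reads per ant stood behind 36 of the 100 genes, compared with 5.80% of all genes. At least 1 ant had no read at all in 52 of the 100 and in 8.79% of all genes. The spread between ants of the same group and batch was wider too, with a median SD of 0.68 on the log2(RPKM + 1) scale against 0.36. The set also held abundant genes: 21 of the 100 had 100 or more reads per ant, and mean levels ran from 1.02 to 2429 RPKM.

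**Figure D1:**
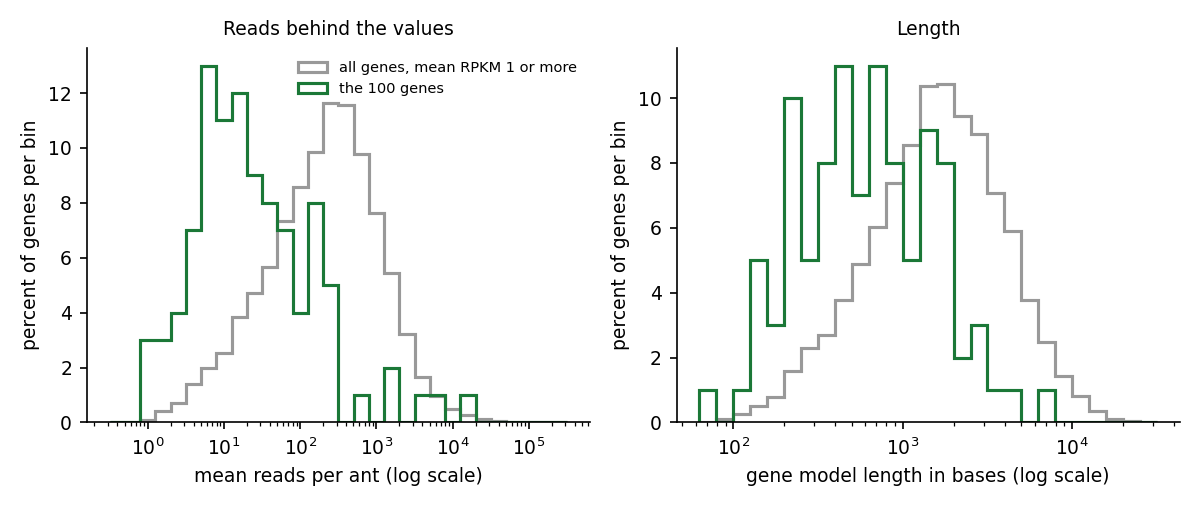
Mean recovered reads per ant (left, log scale) and gene length in bases (right, log scale) as percent of genes per bin, for the 100 genes (green) and all 10195 genes with a mean RPKM of 1 or more (grey). The 100 genes lie lower in both, with medians of 17.5 reads and 591.5 bases against 224 reads and 1611 bases.

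The upper gap, from stable workers to the next group, was 2.05 in the first gene, 0.48 at the median and 0.35 in the last, on the log2(RPKM + 1) scale. It reached 1 in 3 genes and 0.5 in 42. The median gap equals a 1.40-fold difference in RPKM + 1. In 19 of the 100 genes the gap was larger than the gene's own SD between ants of the same group and batch, and in the other 81 it was not. The last gene inside the limit was Hsal_12220 and the one before it was Hsal_17155, at 0.352. The first outside were Hsal_07127 at 0.349 and Hsal_02833 at 0.345, so nothing in the values sets the limit of 100. By the same rule the median gap of the leading 100 genes was 0.70 for genes highest in transition workers and 0.49 for genes highest in gamergates.

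The clearest gene was Hsal_09889 (length 451 bases, 153 reads per ant on average). In batch B its levels in the 5 stable workers were 58.2, 82.6, 108, 65.8 and 136 RPKM. The 5 transition workers of that batch had 24.4, 39.0, 22.9, 28.4 and 30.9 RPKM, and the 5 gamergates had 47.8, 28.5, 20.2, 36.7 and 23.8 RPKM. Every stable worker of batch B thus lay above every other ant of the batch. In batch C the stable workers had 57.6, 46.8, 53.3, 78.9 and 62.0 RPKM. The transition workers of batch C had 24.2, 31.7, 47.5 and 26.1 RPKM, and the gamergates had 45.6, 25.6, 43.9, 26.3 and 51.5 RPKM. Here the groups met at their edges, with stable worker 7 under transition worker 10 and under gamergate 12. The 4 ants of batch A, none of them stable workers, had 23.9 to 33.4 RPKM.

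Over all ants the mean of Hsal_09889 was 74.9 ± 27.9 RPKM (SD, n = 10) in stable workers. It was 30.2 ± 7.54 RPKM in the 11 transition workers and 33.6 ± 10.9 RPKM in the 12 gamergates (both SD). In limma, with all ants and batch as a term, stable workers exceeded transition workers by a log2(RPKM + 1) difference of 1.21, whose SE was 0.183, and the p adjusted over 11234 rows was 0.00228. They exceeded gamergates by 1.09 with an SE of 0.179, at a limma adjusted p of 0.00474. Gamergates and transition workers differed by 0.12 (SE 0.171), with a 95% interval from -0.23 to 0.47 and an adjusted p of 0.835 in limma. Among ants whose library name starts with H, the stable workers of batch B had 65.8 and 136 RPKM against 24.4 and 39.0 in transition workers. In batch C, where all stable and transition workers carry H, these groups met at their edges, as given above. Both calls were lost with the library prefix as a further term, in each of batch B and batch C taken singly, and with the replicate number as a block (adjusted p of 0.0892 and 0.0814 in limma). The gene was chosen with these same levels, so the p-values describe its spread and do not test the choice. These are bulk samples of brain tissue, in which more cells of a type and more RNA per cell cannot be told apart.

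**Figure D2:**
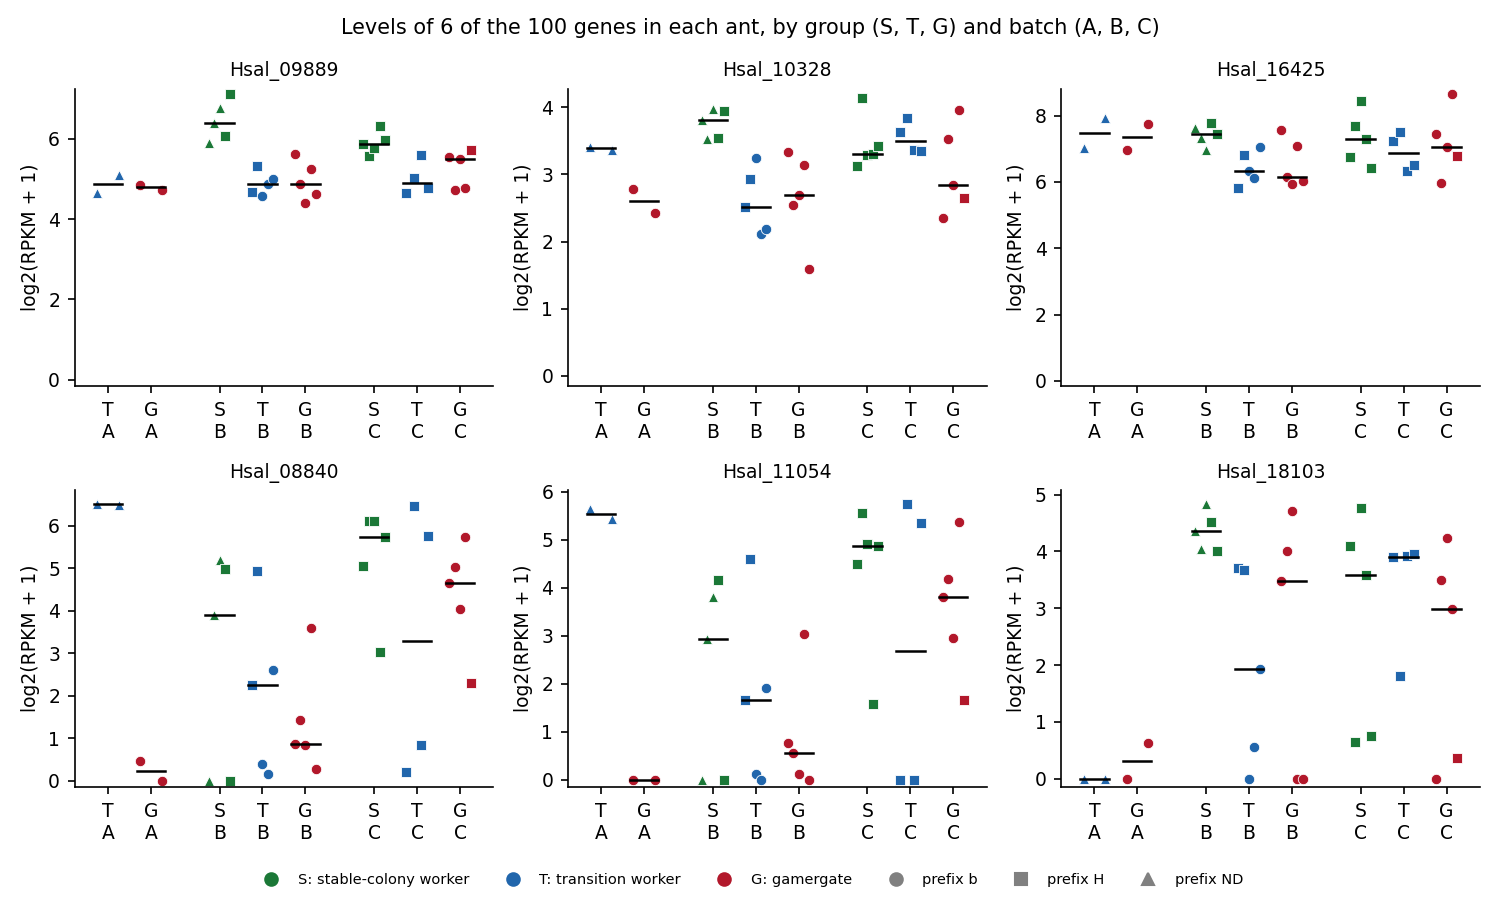
Level of 6 of the 100 genes in each ant as log2(RPKM + 1), by group (S stable worker, T transition worker, G gamergate) and sequencing batch (A, B, C). Each point is an ant, its shape gives the prefix of the library name, and lines are medians. Hsal_09889 separates stable workers in batch B, whereas Hsal_08840, Hsal_11054 and Hsal_18103 are near 0 in some ants and high in others of every group in batch B or C.

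A pair of genes with the largest gaps ranged from near 0 in some ants to high in others, with further ants between. Hsal_08840 (gap 2.05) had 0.0, 14.02, 35.6, 30.5 and 0.0 RPKM in the stable workers of batch B. In those of batch C it had 32.1, 68.1, 68.0, 7.15 and 52.6 RPKM. Transition workers had 3.76, 29.5, 0.311, 0.114 and 5.05 RPKM in batch B and 0.159, 87.1, 0.781 and 53.5 RPKM in batch C. The groups overlapped over almost their whole range, and the highest ant of batch C was a transition worker. Gamergates of batch B had 0.825, 1.70, 0.784, 11.1 and 0.218 RPKM, and those of batch C had 24.3, 31.5, 15.5, 52.6 and 3.95 RPKM. Levels were thus higher in batch C than in batch B among both stable workers and gamergates. At 5 RPKM or more were 8 of 10 stable workers, 6 of 11 transition workers and 5 of 12 gamergates.

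Hsal_11054 (gap 1.71) followed Hsal_08840 from ant to ant. Both were under 1 RPKM in 11 ants and both at 1 RPKM or more in 21, and in the single other ant only Hsal_08840 was above 1 RPKM. In the 21 ants with both, the level of Hsal_08840 was 1.82 times that of Hsal_11054 at the median, from 1.26 to 3.60. With group and batch means removed, their correlation over the 33 ants was 0.98, given as a description of libraries that share batches. In batch A, which the order of groups did not use, Hsal_08840 had 90.3 and 89.2 RPKM in the transition workers and 0.380 and 0.0 RPKM in the gamergates. The transition workers of batch A held the highest levels of Hsal_08840 in the data. Neither gene passed in limma, and for Hsal_08840 the interval of stable over transition workers ran from -1.19 to 2.54 on the log2(RPKM + 1) scale.

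Hsal_16991 (gap 1.11; 43.8 reads per ant) had 18.6, 40.3, 1.01, 6.14 and 63.9 RPKM in stable workers of batch B and 1.66, 10.5, 8.61, 17.1 and 3.06 RPKM in those of batch C. Its highest ant was transition worker 5, at 64.1 RPKM, above every stable worker. Hsal_18103, picked after its values had been seen, had 15.1 to 27.6 RPKM in the stable workers of batch B. In batch C it had 16.1, 0.557, 26.3, 11.02 and 0.675 RPKM in stable workers, so 2 of the 5 lay near 0. Of the 11 transition workers 5 were at 10 RPKM or more, as were 5 of the 12 gamergates. Its gap was 0.89 in batch B and -0.32 in batch C, so in batch C stable workers were not the highest group.

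Hsal_10328 had 13.0, 10.6, 14.8, 10.7 and 14.5 RPKM in the stable workers of batch B, all above the 10 other ants of the batch, which reached 9.13 RPKM. In batch C stable workers had 7.68 to 16.7 RPKM and transition workers 9.17 to 13.3 RPKM, and the transition workers had the higher median. Hsal_11261 had 1.22 to 2.62 RPKM in stable workers of batch B and 2.29 to 4.05 RPKM in those of batch C, with 6 of the 10 above every other ant of their batch. Its lowest stable worker lay under all 5 transition workers of batch B. Hsal_16114 had 6 of 10 stable workers above every other ant of their batch as well, but rests on 5.36 reads per ant. Stable worker 5 had no read of it while the other 9 stable workers had 2.03 to 4.32 RPKM.

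The 21 genes with 100 or more reads per ant had a median gap of 0.48, as did the whole set. Among the most abundant, Hsal_07502 (gap 0.38) had 408 to 916 RPKM in stable workers, with a median of 684. Transition workers ran from 132 to 1404 RPKM with a median of 549, and gamergates from 129 to 618 RPKM with a median of 423. The stable workers lay within the range of transition workers and overlapped that of gamergates. Hsal_12220 had a gap of 0.69 in batch B and of -0.49 in batch C. Its highest levels were 1508 RPKM in stable worker 5 and 1316 RPKM in transition worker 10.

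Hsal_12595, with the highest mean of the set at 2429 RPKM, moved with the ribosomal RNA share. In batch B, where that share stayed between 0.317% and 1.17%, stable workers had 596 to 936 RPKM, transition workers 288 to 934 RPKM and gamergates 253 to 875 RPKM. In batch C stable workers had 575, 7643, 3299, 6142 and 1269 RPKM, at ribosomal RNA shares of 0.456%, 7.05%, 2.91%, 5.87% and 1.22%. Transition worker 9 had 25599 RPKM at a share of 20.0%. The ants were in the same order by both measures in this group of 5, and the part of ribosomal RNA in the result was not tested. Hsal_17155 was another gene of this kind, with 6.09 to 10.8 RPKM in stable workers of batch B and 16.1 to 254 RPKM in those of batch C, and 782 RPKM in transition worker 9.

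Stable workers were the highest group in 85 of the 100 genes in batch B, where they were highest in 29.9% of all genes, and in 85 in batch C, against 40.6% of all genes. They were highest in both batches in 70, against 10.7% of all genes. The remaining 30 owed their place to 1 batch. These counts follow from the choice of the genes. Every stable worker lay above every other ant of the batch in 2 genes in batch B, Hsal_09889 and Hsal_10328, against 0.0392% of all genes, and in 1 gene in batch C, Hsal_07683, against 0.0687%. In no gene of the set did all 10 stable workers lie above all other ants. The highest ant of batches B and C was a stable worker in 45 of the 100 genes, a transition worker in 41 and a gamergate in 14, against 24.8%, 52.4% and 22.7% of all genes. At the median gene of the set, 7 of the 10 stable workers exceeded the higher of the other medians of their batch, against 4 over all genes. This number follows from the choice of the genes as well.

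**Figure D3:**
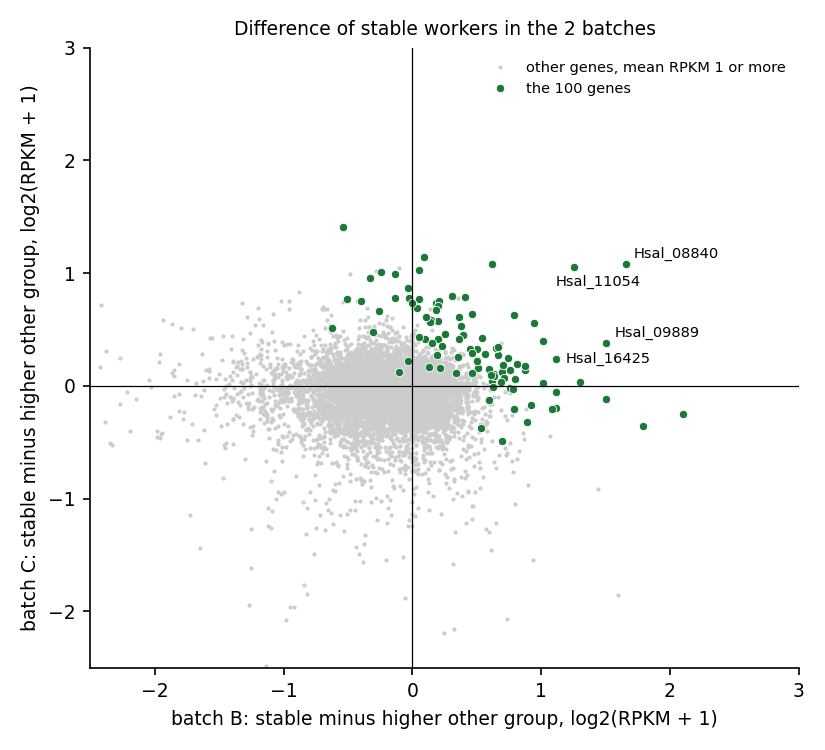
Difference of the stable-worker median from the higher of the other medians, in log2(RPKM + 1), in batch B (horizontal) and batch C (vertical). Green points are the 100 genes and grey points the other genes with a mean RPKM of 1 or more, 11 of which lie outside the drawn range. Of the 100 genes 70 lie above 0 on both axes and 30 on 1 axis only.

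In limma, 1 of the 100 genes, Hsal_09889, was higher in stable than in transition workers at an adjusted p of 0.05 (background 0.0089% of 11234 rows), and 20 were at an unadjusted p under 0.05 (background 2.04%). None was called lower, and none was lower at an unadjusted p under 0.05 (background 0.926%). Against gamergates 1 gene was called, again Hsal_09889 (background 0.16%), and 32 were at an unadjusted p under 0.05 (background 5.18%). No gene was lower at an adjusted p of 0.05 (background 0.0712%) or at an unadjusted p under 0.05 (background 2.38%). The next gene against gamergates was Hsal_10331, 0.75 higher on the log2(RPKM + 1) scale with an SE of 0.188, at a limma adjusted p of 0.116. It had 5.68 ± 1.85 RPKM (SD, n = 10) in stable workers and 3.16 ± 1.496 RPKM (SD, n = 12) in gamergates. Since the genes were chosen on these differences, nothing is read from the counts, and both calls of Hsal_09889 were lost in the 4 settings given above.

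The choice could be repeated in 1 batch and read in the other. The ants of the other batch took no part in the order of groups or the gap. They entered only through the filter of a mean of at least 1 RPKM, which was taken over all ants. The 100 genes chosen in batch B alone had a median gap of 0.68 there on the log2(RPKM + 1) scale. In batch C, stable workers were the highest group in 35 of these 100, while they were highest in 40.6% of all genes. Their median gap in batch C was -0.15, against -0.04 over all genes. The median difference in batch C of stable over transition workers was 0.01 (all genes 0.04), and of stable workers over gamergates 0.03 (all genes 0.04). The genes chosen in batch B were thus not more often highest in stable workers of batch C than genes at large.

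The 100 genes chosen in batch C alone had a median gap of 0.61 there. In batch B stable workers were the highest group in 29 of them, with 29.9% over all genes, and the median gap was -0.25 against -0.12. Stable workers exceeded gamergates of batch B by 0.10 at the median (all genes 0.04) and transition workers by -0.13 (all genes -0.05). Both choices had 2 genes in common, Hsal_00909 and Hsal_10100, which are 2.0% of each list. Hsal_00909 rests on 10.03 reads per ant and Hsal_10100 on 1.45. A further test in limma asked whether stable workers minus the mean of the other 2 groups changed from batch B to batch C. This measure is not the gap, which takes the higher of the other 2 groups. The test called none of the 100 genes of the main set and none of the 11234 rows. In the set, batch B minus batch C ran from -1.95 in Hsal_15655 to 2.19 in Hsal_18103 on the log2(RPKM + 1) scale. The set was chosen by levels in both batches, so the lack of calls does not show that the batches are alike. The lowest adjusted p of the set was 0.763 in limma, and 9 were at an unadjusted p under 0.05 (4.27% of all rows).

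**Figure D4:**
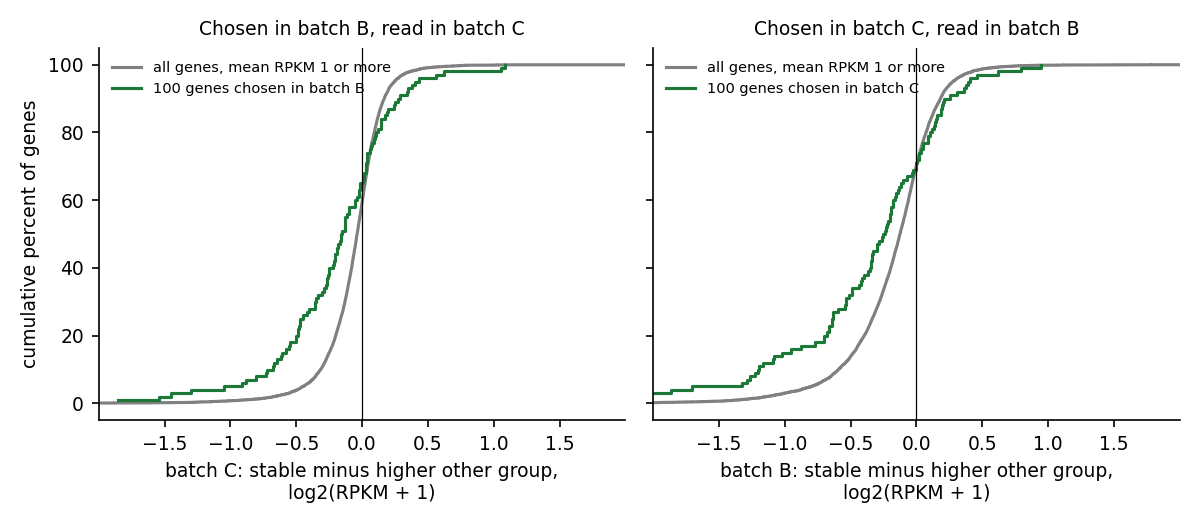
Cumulative percent of genes by the difference of the stable-worker median from the higher of the other medians, in log2(RPKM + 1). It is read in the batch not used for the order of groups, which entered the choice only through the RPKM filter. Green lines are the 100 genes chosen in batch B (left) or batch C (right), grey lines all 10195 genes, and the axis covers -2 to 2. Of the genes in the green lines, 35 (left) and 29 (right) lie above 0, compared with 40.6% and 29.9% of all genes.

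The mean of log2(RPKM + 1) over the 100 genes gives their joint level in each ant. In batch B it was 2.72 to 3.03 in stable workers, 2.14 to 2.54 in transition workers and 2.12 to 2.37 in gamergates. In batch C it was 2.83 to 3.02, 2.40 to 2.56 and 2.29 to 2.82 in the same order. The choice of genes fixes that stable workers lie highest here. Gamergate 11 stood apart from the other 4 gamergates of batch C, at 2.82 against 2.55 in the next, and lay just under the lowest stable worker of that batch, at 2.83. Between 2 and 14 of the 100 genes had no read in a stable worker (median 3). The number was 4 to 23 in transition workers (median 13) and 3 to 17 in gamergates (median 10.5), with batch A included. The choice of genes favours a low number in stable workers, and the number over all genes was not counted by ant. Depth differed too, with median reads in genes of 7614597 in stable workers, 6204530 in transition workers and 7627791.5 in gamergates. Over all 10195 genes the ants of the 3 groups overlapped. Means of log2(RPKM + 1) were 4.03 to 4.26 in stable workers, within a range of 3.88 to 4.36.

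**Figure D5:**
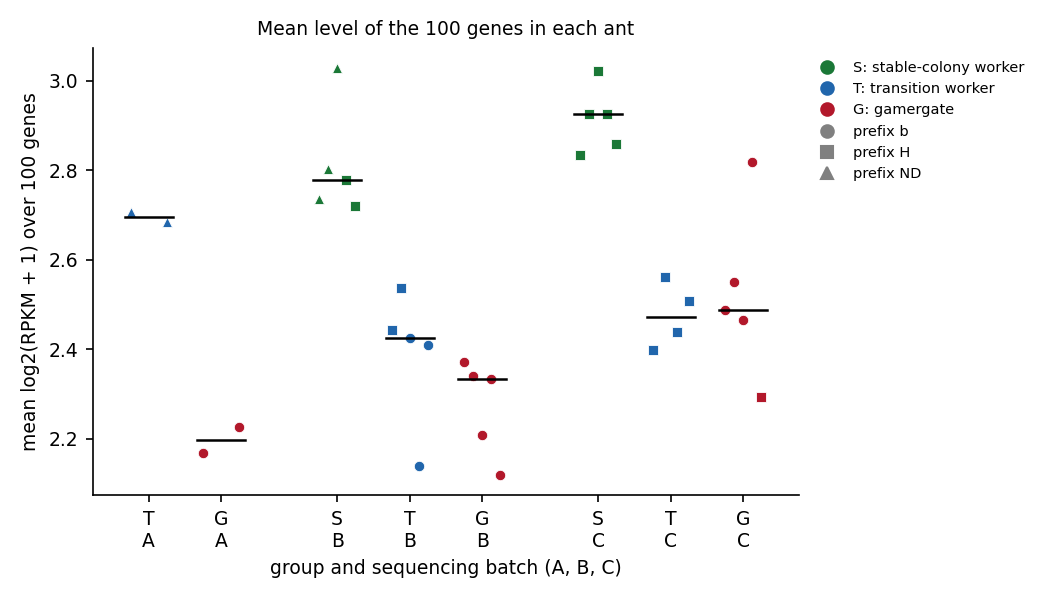
Mean log2(RPKM + 1) over the 100 genes in each ant, by group and sequencing batch; the axis does not start at 0. Points are ants, shapes give the prefix of the library name, and lines are medians. In batch A, which entered the choice only through the RPKM filter, transition workers (2.69 and 2.71) lie above gamergates (2.17 and 2.23).

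Batch A, whose ants did not enter the order of groups, allowed a look at transition workers against gamergates. These ants did enter the filter of a mean of at least 1 RPKM, so they were not fully outside the choice. The joint level was 2.71 and 2.69 in the 2 transition workers and 2.17 and 2.23 in the 2 gamergates. Both transition workers lay above both gamergates in 32 of the 100 genes (background 21.1% of all genes) and below both in 3 (background 22.9%). The median difference over the 100 genes was 0.27 on the log2(RPKM + 1) scale, against 0.01 over all genes. It was 0.00 in batch B and -0.02 in batch C, where the rule had limited it by asking that the 2 lower groups lie close together. In batch A the transition workers carry the prefix ND and the gamergates the prefix b, so that group and prefix cannot be told apart there.

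Of the 100 genes, 53 had gamergates as the lowest group and 47 transition workers. With all ants in limma, none of the 100 was called between gamergates and transition workers (background 0.0534% in each direction), and none was at an unadjusted p under 0.05, where 4.34% of all rows were higher and 5.05% lower in gamergates. The lowest adjusted p was 0.551. The median difference of gamergates over transition workers was -0.12 against -0.02 over all rows, and 30 of the 100 were above 0. In the authors' deposited table of the same comparison, 73 of the 100 were higher in transition workers, against 55.3% of all genes, with a median log2 fold change of 0.17 against 0.03. None of the 99 with an adjusted p in the authors' deposited table was under 0.05 (background 0.567%), 8 were at an unadjusted p under 0.05 (10.3% of all genes), and the lowest adjusted p was 0.239. The rule limits this difference too, so these values are a description.

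The 100 genes did not vary together as a whole. With the means of group and batch removed, the median correlation over the 4950 pairs was 0.02 across the 33 ants, against 0.05 over pairs of all genes, and 45 pairs (0.909%) exceeded 0.6, against 9.94%. Average linkage at a correlation of 0.5 left 11 groups of 3 or more with 39 genes in all, 22 genes in pairs and 39 alone. These correlations describe libraries that share depth and batch. The comparison was not matched for reads, at a median of 17.5 per ant in the 100 genes against 224 over all genes. The part of low reads in the correlations was not tested.

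The largest of these groups held 6 genes, Hsal_04106, Hsal_07683, Hsal_10112, Hsal_04625, Hsal_07502 and Hsal_10111, with a median correlation of 0.67. Their joint mean of log2(RPKM + 1) ran from 5.41 to 5.89 in the stable workers of batch B and from 4.76 to 5.85 in those of batch C. Transition workers 5 and 4, both of batch B, reached 6.48 and 6.08, above every stable worker, and transition worker 6 had the lowest value of all ants, 3.56. Stable workers were thus high by median and narrow in batch B, within the range of the transition workers. Hsal_07683 of this group had 11.4 to 21.9 RPKM in stable workers, with a median of 15.4. It had 1.36 to 33.5 RPKM in transition workers, with a median of 11.5, and 3.23 to 11.6 RPKM in gamergates, with a median of 8.71.

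A run of neighbouring ID numbers stood out. Of the 9 genes from Hsal_16425 to Hsal_16433, 5 were in the set (Hsal_16425, Hsal_16427, Hsal_16431, Hsal_16432 and Hsal_16433), and all 9 had a mean of at least 1 RPKM, as did 4 of the 20 IDs on either side. The 5 genes had a median correlation of 0.61, from 0.32 to 0.84. The labels and files do not say whether these numbers follow the position on the genome, and the run was picked after its values had been seen. Hsal_16425, the most abundant of the 5, had 195, 158, 124, 218 and 172 RPKM in the stable workers of batch B. Transition workers of batch B had 55.0 to 133 RPKM, and gamergates 60.5 to 188 RPKM. In batch C the groups overlapped, at 85.4 to 347 RPKM in stable workers, 79.7 to 182 in transition workers and 62.2 to 403 in gamergates.

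The gaps of all 5 were larger in batch B than in batch C. They were 1.11 and 0.24 in Hsal_16425, 1.11 and -0.05 in Hsal_16427, and 0.62 and 0.04 in Hsal_16431. In Hsal_16432 they were 0.88 and 0.14, and in Hsal_16433 0.79 and -0.21. The other 4 genes of the run did not all share the order of groups. By the averaged medians, stable workers were highest in Hsal_16426, Hsal_16428 and Hsal_16429 as well, though in Hsal_16428 the gap was -0.42 in batch C. Hsal_16430 had a median of 7.25 in transition workers and of 5.63 in gamergates on the log2(RPKM + 1) scale, with stable workers between them. Among the 100 genes 4 pairs had directly neighbouring ID numbers, with a median correlation of 0.60. These include Hsal_16431 with Hsal_16432 and Hsal_16432 with Hsal_16433, from the run that was picked after its values had been seen. Over the 7624 such pairs of all genes the median was 0.20, and 19.1% exceeded 0.6.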

How the data were processed

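RPKM values of 33 ants and 19198 rows (769 of them no genes) and a table of gamergates against transition workers were deposited by the authors. The authors used STAR 2.5.0b and DESeq2, per the submitters' processing notes. Build, annotation and counting settings were not given in the sources used here, nor which of several runs of an ant a column holds. The columns of the authors' table are, per the file headers, a mean signal that was not used, a log2 fold change and p-values, raw and adjusted.

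Of the values above 0 in the 15320 rows detected in at least 2 ants, 100% were whole multiples of the value of 1 read within 0.01 reads. Reads, depths (3904943 to 11159675 per ant) and gene lengths were recovered from these steps. They cover counting error only. Batches were read from the run dates in library names.

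log2(RPKM + 1), which understates changes of low genes, was tested with limma 3.58.1 in R 4.3.3 (eBayes with a variance trend). All 33 ants and a batch term entered, the 11234 rows whose mean reached 0.5 RPKM were tested on both sides, and p-values were adjusted by Benjamini-Hochberg with a threshold of 0.05. The script was tested on simulated data with normally distributed spread and no batch differences. That test therefore does not cover genes with few or no reads. Replicate numbers were not used to pair ants in the main fit, and no nest is labelled by which to check a pairing. Correlations of deviations ran from -0.29 to 0.37 for gamergates and transition workers, with 5 of 11 over 0.1. They ran from -0.17 to 0.49 for stable workers and gamergates (4 of 10) and from -0.20 to 0.25 for stable and transition workers (4 of 10). Replicates 1 and 2, both of batch A, share the value 0.178 for gamergates and transition workers by construction. Some pairs with stable workers joined ants of different batches. These correlations therefore cannot exclude a pairing.

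Genes and tests were chosen with earlier results of these data known. Named genes are the 4 with the largest gap, the 4 with the highest mean RPKM, the 4 with the most stable workers above every other ant of their batch, those called in limma, and the 2 on either side of the limit. Others are said to be picked after their values were seen. Hsal_07683, Hsal_00909, Hsal_10100, Hsal_10331, Hsal_15655, Hsal_16426, Hsal_16428, Hsal_16429 and Hsal_16430 were too. Ribosomal, transfer and small nuclear RNA rows were left out of the choice. Gene lists and cell type markers by name could not be applied, since no ID was matched to a name. Alternatives covered the pseudocount, filters, scaling, group means, list size, batches, library prefix, the replicate block and each ant left out.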

Additional observations from a re-analysis of the deposited data

Results flagged for a closer look

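In Hsal_16114, stable worker 5 stood apart from the other 9 stable workers: it had 0.0 RPKM while the others had 2.03 to 4.32 RPKM. On the log2(RPKM + 1) scale, its distance to the next ant was 0.663 of the range of the group. With 17 sets of values examined, about 1 in 20 would be marked by chance. The gene has 5.36 reads per ant on average.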

How the results depend on the processing

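Which genes make up the set depended on the settings of the choice. Of the 100 genes, 55 were kept with group means in place of medians, 40 with a minimum of 5 RPKM, 59 with no filter on RPKM, 42 with batch B alone, 32 with batch C alone and 56 without libraries of prefix ND. Between 74 and 90 were kept with other pseudocounts, a minimum of 0.5 RPKM and other scalings, 73 without transition workers 9 and 10, and 75 to 100 when 1 ant was left out. The median gap was 0.316 with a minimum of 5 RPKM and 0.679 in batch B alone, the ends of its range over settings, and 0.448 to 0.494 with 1 ant left out. Candidate genes numbered 1285 to 2052 over settings and 1252 to 1867 with 1 ant left out.

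The number of genes called between stable and transition workers fell from 1 to 0 with the replicate block (adjusted p = 0.0892 in limma), with the library prefix as a term, and within batch B or C. Between stable workers and gamergates it fell from 1 to 0 in the same 4 settings (adjusted p = 0.0814 in limma with the block). Over these and the other settings that did not drop a single ant, the lowest adjusted p of the set ran from 0.00051 to 0.401 and from 0.00119 to 1.0 in limma. With 1 ant left out the count stayed at 1 against transition workers and was 1 to 2 against gamergates, with 2 without gamergate 6 or gamergate 11. With voom on the recovered reads, an alternative added after seeing the data, both counts were 1. The count between gamergates and transition workers was 0 throughout.

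Of the genes chosen in batch B, stable workers were highest in batch C in 23 with quantile normalization (32.7% of all genes), in 24 with group means (45.1%) and in 23 to 41 with 1 ant left out (35.8% to 42.5%), the lowest without gamergate 3 (40.6%). Over the settings that did not drop a single ant, the range was 23% to 40% of the chosen genes. Choosing in batch C and reading in batch B gave 29 in the main choice, with 29.9% of all genes. It gave 21 to 34 with 1 ant left out, and 20% to 34% of the chosen genes over the other settings. Leaving out the libraries with prefix b or H was not run, since a group would lose a batch. Depth limits the 36 genes with under 10 reads per ant most. The causes of these changes were not tested.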
